A study of Homo sapiens with 12 samples.

Results

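ASS1, ASL and ARG2 are 3 genes around arginine: argininosuccinate synthase, argininosuccinate lyase and the mitochondrial arginase. They were taken by symbol from the table of a study of glioblastoma cell lines, where they are 3 of 19824 gene entries, and all 3 were among the 13628 genes tested. The study compared 4 groups of 3 libraries, each from total RNA of the cell line U87 or U373, both labelled wild-type. The groups were U87 with 1 U/ml BCT-100, U87 with phosphate-buffered saline (PBS), U373 with 1 U/ml BCT-100, and U373 with PBS. The time was 72 h in all 4 groups. BCT-100 is a pegylated arginase I, which turns arginine into urea and ornithine, so the treatment is meant to deplete arginine. All cells were in high-glucose DMEM with serum, and each line is a single established culture.

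Arginine can be taken up from the medium or remade inside the cell. Argininosuccinate synthase (ASS1) joins citrulline and aspartate, and argininosuccinate lyase (ASL) then splits the product into arginine and fumarate. Low ASS1 is known in several tumour types as a reason why cells depend on outside arginine. ARG2 works in the opposite direction, breaking arginine down inside mitochondria, whereas its relative ARG1, the liver enzyme that BCT-100 is a form of, is cytosolic.

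In the GENCODE 29 annotation of GRCh38, ASS1 (ENSG00000130707.17) lies on the plus strand of chromosome 9 from 130444929 to 130501274. ASL (ENSG00000126522.16) lies on the plus strand of chromosome 7 from 66075798 to 66093558. ARG2 (ENSG00000081181.7) lies on the plus strand of chromosome 14 from 67619798 to 67651720. The longest coding transcripts have 16 exons for ASS1, 17 for ASL and 8 for ARG2. The promoters are shown because the 3 genes responded differently, and because an E-box (CACGTG) in the ASS1 promoter is a known site for MYC and HIF1A. RefSeq (GRCh38.p14) gives windows from 250 bases before to 50 after an annotated start for all 3 genes, 4 windows in all, of which ASS1 has 2. In the sequences below, 5′ to 3′ on the plus strand, capitals mark CACGTG, TGACGTCA or TGATGNAA.
ASS1 promoter, chr9:130444711-130445010: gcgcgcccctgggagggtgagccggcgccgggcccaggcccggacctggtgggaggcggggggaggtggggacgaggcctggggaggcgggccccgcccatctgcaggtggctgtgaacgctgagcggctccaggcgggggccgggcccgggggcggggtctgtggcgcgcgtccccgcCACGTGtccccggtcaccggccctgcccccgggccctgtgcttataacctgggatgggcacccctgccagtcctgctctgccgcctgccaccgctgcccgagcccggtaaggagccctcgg
ASL promoter, chr7:66075569-66075868: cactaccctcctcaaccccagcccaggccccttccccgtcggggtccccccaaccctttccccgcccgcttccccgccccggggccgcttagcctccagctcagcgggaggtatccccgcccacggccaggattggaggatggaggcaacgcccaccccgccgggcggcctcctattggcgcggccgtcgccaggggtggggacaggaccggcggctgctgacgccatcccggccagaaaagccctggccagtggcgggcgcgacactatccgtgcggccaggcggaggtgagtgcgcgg
ARG2 promoter, chr14:67619670-67619969: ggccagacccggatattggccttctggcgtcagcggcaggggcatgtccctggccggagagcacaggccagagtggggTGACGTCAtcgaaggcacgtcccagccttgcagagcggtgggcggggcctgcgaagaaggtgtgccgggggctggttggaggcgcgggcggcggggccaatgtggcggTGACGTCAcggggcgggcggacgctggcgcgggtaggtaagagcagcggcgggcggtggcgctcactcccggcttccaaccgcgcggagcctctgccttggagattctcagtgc

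Motifs were searched on both strands as CACGTG (E-box), TGACGTCA (cyclic AMP response element), TGATGNAA (the core of the C/EBP and ATF composite element that ATF4 can bind) and GGGCGG (GC box). The printed ASS1 window holds 1 CACGTG, at bases -71 to -66 from the start, and its other window holds 0. Of 35116 promoter windows of the same length, 7.26% hold CACGTG. The ARG2 window holds 2 copies of TGACGTCA, at -172 to -165 and at -64 to -57, and 1.85% of all windows hold at least 1. TGATGNAA, found in 3.62% of all windows, was in none of the 4 windows of these genes. GC boxes numbered 2 in each ASS1 window, 4 in the ASL window and 5 in the ARG2 window, where some lie within a few bases of each other, and 45% of all windows hold GGGCGG. These matches describe the letters and are not evidence of binding.

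Levels are deposited read counts that were scaled per library. Depths recovered from the values ran from 18.89 to 25.92 M reads. Changes are differences of log2(value + 1), BCT-100 minus PBS, with the standard error (SE) of a limma fit over all tested genes and an adjusted p (Benjamini-Hochberg, two-sided, threshold 0.05). The labels do not say whether the 3 libraries of a group were separate cultures, so the spread behind each p-value is that between libraries and may be technical. Mitochondrially encoded mRNA took 3.59% to 3.70% of U87 BCT-100 libraries and 5.84% to 6.06% of U87 PBS libraries. In U373 it took 3.32% to 3.46% with BCT-100 and 4.26% to 4.36% with PBS. The share moved with the treatment, and its part in the results below was not tested.

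Of the glial markers, VIM, NES and CD44 were present in both lines, and AQP4 was near 0 in both. SOX2, a stem cell factor, averaged 0 (BCT-100) and 0.652 (PBS) in U87, against 1293 and 3934 in U373. S100B averaged 0.301 and 0 in U87, against 55.1 and 398 in U373. OLIG2, an oligodendrocyte lineage factor, averaged 108 and 20.6 in U87 and 9.80 and 0 in U373, and rose with BCT-100 in both lines. Of the 7 glial markers tested, it was the only 1 that rose in U87, where 4 fell and 2 did not pass. In U373 it was again the only 1 that rose, and 6 fell. GFAP, the astrocyte filament, averaged 1.37 (BCT-100) and 3.58 (PBS) in U87, so this marker was close to absent there, against 10041 and 52216 in U373. The 8 glial and neural stem markers, most of the sum VIM and CD44, came to 108214 to 110646 in U87 BCT-100, 223511 to 227646 in U87 PBS, 85881 to 86428 in U373 BCT-100 and 281771 to 292978 in U373 PBS. Markers of other cell types were low. The 6 leukocyte markers summed to 9.02 to 15.2 in U87 BCT-100 and 4.25 to 12.7 in U87 PBS, and to 57.2 to 84.7 in U373 BCT-100 and 22.7 to 27.6 in U373 PBS. AIF1 and CD3E were at 0 in every group, and most of the U373 signal was CD14. The 5 hepatocyte markers, nearly all SERPINA1, summed to 117 to 141 (BCT-100) and 23.7 to 41.5 (PBS) in U87, and to 53.0 to 73.5 and 72.7 to 108 in U373, with TTR at 0 throughout. The 3 endothelial markers summed to at most 86.4 and the 3 epithelial markers to at most 23.5 in any library.

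ASS1 rose with BCT-100 in both lines. In U87 its value was 4579.7, 4558 and 4390.4 with BCT-100, against 2070.4, 2048 and 1959 with PBS. The groups did not overlap, and the change was 1.15 on the log2 scale (SE 0.06, adjusted p = 5.94e-13), or 2.23-fold. In U373 its value was 679, 688 and 629 with BCT-100, against 23.9, 25.7 and 26.4 with PBS. These PBS libraries held 26, 22 and 29 ASS1 reads, so the gene was detected in each but rested on few reads, with 95% Poisson intervals that together span 13.8 to 41.6 reads and cover counting error only. The change in U373 was 4.66 (SE 0.06, adjusted p = 9.99e-23), or 25.3-fold on the value + 1 scale. That SE rests on a spread pooled over all groups and is narrower than counting error in the U373 PBS libraries allows. The same holds for the other ASS1 differences below that use U373 PBS. By size it ranked 16 among the rises of all 13628 tested genes in U373, while the rise in U87 ranked 923. In bulk RNA, a change in the number of expressing cells and a change in RNA per cell cannot be told apart.

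ASL, which completes the resynthesis of arginine, fell in both lines. In U87 it was at 449, 453 and 502 with BCT-100, against 647, 589 and 612 with PBS. In U373 it was at 540.4, 505 and 512 with BCT-100, against 888, 902 and 841 with PBS. No library with BCT-100 reached the lowest PBS library of its line. The change was -0.40 in U87 (SE 0.06, adjusted p = 1.35e-05) and -0.76 in U373 (SE 0.06, adjusted p = 1.22e-09), that is 1.32-fold and 1.69-fold lower.

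ARG2, the arginase inside mitochondria, moved in opposite directions. In U87 it was at 181, 171 and 158 with BCT-100, against 311, 318 and 266 with PBS, a change of -0.81 (SE 0.13, adjusted p = 1.13e-05). In U373 it was at 179, 230.1 and 200.1 with BCT-100, against 90.2, 108 and 116 with PBS, a change of 0.95 (SE 0.13, adjusted p = 1.23e-06). The groups did not overlap in either line. ARG2 had the widest relative spread of the 3 genes, with coefficients of variation of 6.99% in U87 BCT-100, 9.53% in U87 PBS, 12.6% in U373 BCT-100 and 12.7% in U373 PBS. Those of ASS1 ran from 2.30% to 4.96%.

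All 3 genes thus passed the test in both lines. Such calls were common, since 69.3% of all tested genes passed in U87 (33.6% higher and 35.7% lower) and 71.4% in U373 (35.6% higher and 35.8% lower). Groups of 3 libraries failed to overlap for 73.0% of tested genes in U87 and 74.5% in U373, so the calls alone do not set these genes apart. Against a fold of 1.5 (limma's treat), ASS1 kept its call in both lines, and ASL and ARG2 kept theirs in U373 but not in U87 (adjusted p = 1 for ASL and 0.206 for ARG2).

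**Figure D1:**
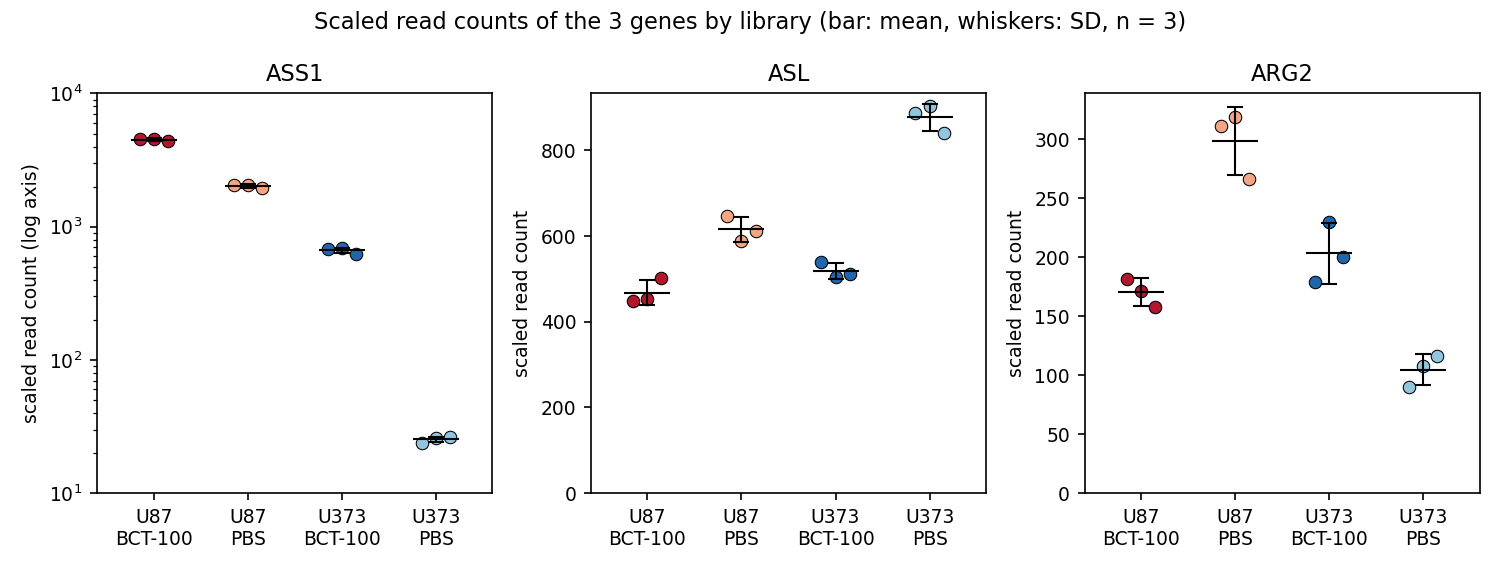
Scaled read counts of ASS1 (log axis), ASL and ARG2 (linear axes from 0) in each of the 12 libraries, by cell line and treatment; points are libraries, bars the mean and whiskers the SD (n = 3). ASS1 is lowest in U373 PBS at 23.9 to 26.4 and highest in U87 BCT-100 at 4390.4 to 4579.7, and the ARG2 groups of the lines lie in opposite order.

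The size of the response differed between the lines for each of the 3 genes. The difference of the log2 changes, U87 minus U373, was -3.51 for ASS1 (SE 0.08, adjusted p = 3.38e-17), 0.36 for ASL (SE 0.09, adjusted p = 0.00192) and -1.75 for ARG2 (SE 0.18, adjusted p = 6.75e-08). ASS1 therefore rose more in U373, ASL fell more in U373, and ARG2 differed in sign. This difference passed for 56.8% of all tested genes. The ASL difference did not pass against a fold of 1.5 (adjusted p = 1).

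**Figure D2:**
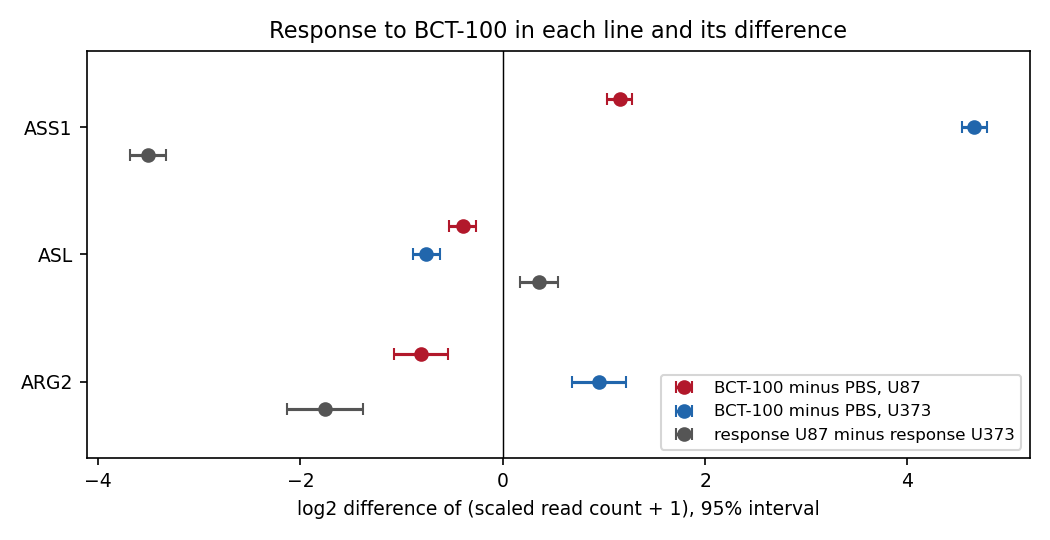
Log2 difference of the value + 1 for each gene (x axis) with its 95% interval from the limma fit, for BCT-100 minus PBS in U87 (red), the same in U373 (blue), and the U87 response minus the U373 response (grey). The interval of no estimate shown reaches 0, and the largest is the rise of ASS1 in U373 at 4.66.

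The lines also differed without BCT-100. In PBS, ASS1 averaged 2026 ± 58.9 in U87 and 25.4 ± 1.26 in U373 (SD, n = 3 each). The log2 difference was 6.27 (SE 0.06, adjusted p = 5.48e-25), or 77.0-fold on the value + 1 scale. ASL averaged 616 ± 28.8 in U87 and 877 ± 32.2 in U373, a difference of -0.51 (SE 0.06, adjusted p = 2.93e-07). ARG2 averaged 298 ± 28.4 in U87 and 105 ± 13.3 in U373, a difference of 1.5 (SE 0.13, adjusted p = 8.48e-10). U87 thus had more ASS1 and ARG2 mRNA and less ASL mRNA than U373, in a comparison in which 83.1% of all tested genes passed and 84.6% did not overlap.

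With BCT-100 the lines lay closer together for each of these genes. ASS1 averaged 4509 ± 104 in U87 and 666 ± 31.9 in U373, which leaves a log2 difference of 2.76 (SE 0.06, adjusted p = 1.69e-19), or 6.77-fold. ASL averaged 468 ± 29.2 in U87 and 519 ± 18.9 in U373, a difference of -0.15 (SE 0.06, adjusted p = 0.0352). That ASL call was lost without U87 BCT-100 replicate 1 (-0.12, adjusted p = 0.118) or replicate 2 (-0.13, adjusted p = 0.104), and without U373 BCT-100 replicate 1 (-0.12, adjusted p = 0.122). ARG2 averaged 170.1 ± 11.9 in U87 and 203 ± 25.6 in U373, and the difference of -0.25 did not pass (95% interval -0.52 to 0.02, adjusted p = 0.0759). It passed without U373 BCT-100 replicate 1, at -0.34 (adjusted p = 0.0322), with libraries scaled to the same total, at -0.29 (adjusted p = 0.0378), and with voom weights, at -0.30 (adjusted p = 0.0296). Of all tested genes, 84.3% passed between the treated lines and 84.7% did not overlap, against 83.1% and 84.6% in PBS.

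Ordered by level, ASS1 ran from U87 BCT-100 over U87 PBS and U373 BCT-100 to U373 PBS, and no neighbouring groups overlapped. U87 with PBS thus held 3.04 times the mean ASS1 value of U373 with BCT-100. ASL was highest in U373 PBS, followed by U87 PBS, U373 BCT-100 and U87 BCT-100, again without overlap. The last 2 ASL groups nearly touched, at 504.8 or more in U373 BCT-100 and 501.8 or less in U87 BCT-100. Lack of overlap was common, at 73.0% of tested genes between treatments in U87 and 74.5% in U373. Between the lines it was 84.6% in PBS and 84.7% in BCT-100. The share for U87 PBS against U373 BCT-100 was not computed. ARG2 was highest in U87 PBS, followed by U373 BCT-100, U87 BCT-100 and U373 PBS, and its 2 BCT-100 groups overlapped, at 158 to 181 in U87 and 179 to 230.1 in U373.

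Levels of different genes were compared per kilobase of annotated exon (3050 bases for ASS1, 3195 for ASL and 2418 for ARG2). In U87, ASS1 exceeded ASL in every library and did so by more with BCT-100. The ratio of ASS1 to ASL per kilobase was 10.7, 10.5 and 9.16 in the U87 BCT-100 libraries, against 3.35, 3.64 and 3.36 in the U87 PBS libraries. In U373 the ratio was 1.32, 1.43 and 1.29 with BCT-100, against 0.0283, 0.0299 and 0.0329 with PBS. ASS1 was therefore the lower of the pair in U373 PBS only, among the 4 groups. The log2 ratio rose by 1.55 in U87 and by 5.42 in U373, with p = 0.1 in both lines by an exact permutation test (two-sided), which cannot go lower with 3 libraries a group. A ratio within a library does not depend on the scaling between libraries, apart from the pseudocount.

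**Figure D3:**
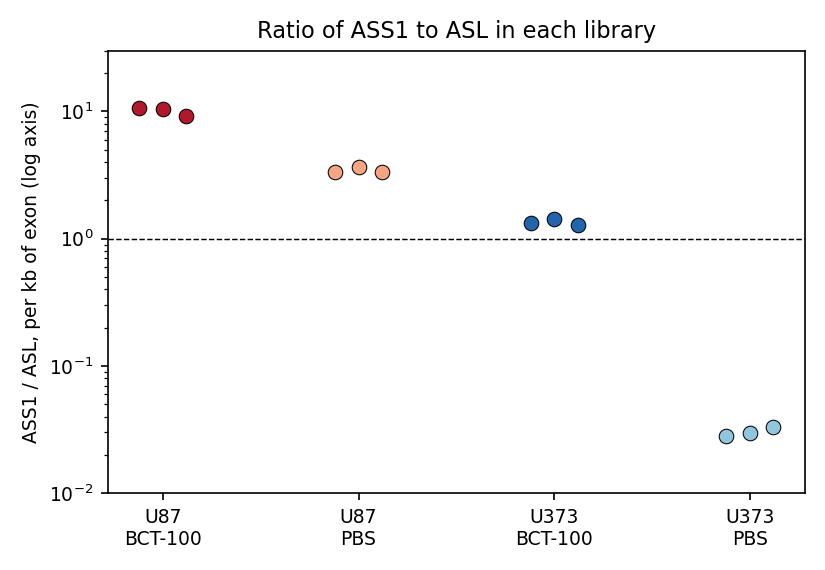
Ratio of ASS1 to ASL per kilobase of exon (log axis) in each of the 12 libraries, by cell line and treatment; the dashed line marks equal levels. With BCT-100 the ratio was 9.16 to 10.7 in U87 and 1.29 to 1.43 in U373, and only the 3 U373 PBS libraries lie below the line, at 0.0283 to 0.0329.

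ARG2 had less mRNA per kilobase than ASL in each group. Per kilobase, its level averaged 70.3 ± 4.92 in U87 BCT-100, 123 ± 11.8 in U87 PBS, 84.0 ± 10.6 in U373 BCT-100 and 43.3 ± 5.5 in U373 PBS (SD, n = 3). The ratio of the mean ASL level to the mean ARG2 level per kilobase was 2.08 and 1.56 in U87 (BCT-100 and PBS), and 1.93 and 6.34 in U373. Relative to ASS1, ARG2 was higher per kilobase in U373 PBS, where the ratio of ASS1 to ARG2 was 0.192. ARG2 was lower in the other groups, with ratios of 21.0 in U87 BCT-100, 5.38 in U87 PBS and 2.60 in U373 BCT-100.

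Shared sequence limits these values. GENCODE names 11 pseudogenes on 9 chromosomes after ASS1 and 1 after ASL, and the table lists 0 of them, so reads of such copies can have been counted for either gene or lost. ARG2 overlaps VTI1B, a vesicle fusion gene on the opposite strand, and the use of strand in counting is not given in the sources used here. VTI1B changed by -0.24 (SE 0.03) in U87 and by -0.08 (SE 0.03) in U373. ASL overlaps a longer coding locus on its own strand.

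Of the other urea cycle enzymes, OTC and ARG1 were at or near 0, whereas CPS1 averaged from 566 (U373 BCT-100) to 1015 (U87 PBS). OTC, which makes citrulline, was at 0 in all libraries, and ARG1 had 2 reads in the U87 BCT-100 libraries and 0 in the other groups. Of 7 genes of the cycle and its carriers 4 could be tested. In U87, 1 rose, 2 fell and 1 did not pass (median -0.33), and in U373, 2 rose and 2 fell (median 0.04). The median of all tested genes was -0.01 in U87 and 0 in U373. CPS1, the carbamoyl phosphate synthetase, fell by 0.46 in U87 and fell by 0.50 in U373 (SE 0.06 each). NAGS, which makes the activator of CPS1, rose by 0.84 and 0.98 (SE 0.17 each). SLC25A13, which exports aspartate from mitochondria, fell by 0.75 in U87 and fell by 0.72 in U373 (SE 0.04 each). SLC25A2, another ornithine carrier, was not tested, with 1 read in U87 BCT-100, 3 in U87 PBS, 0 in U373 BCT-100 and 9 in U373 PBS. The ornithine carrier SLC25A15 rose by 0.59 in U373 (SE 0.10) and was at -0.20 in U87 without passing (adjusted p = 0.0886).

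Of 6 genes of cationic amino acid transport, which include exchangers and the shared partner SLC3A2 beside importers, 4 could be tested. These 4 rose in U87 (median 0.79), and 3 rose in U373 with 1 not passing (median 1.68), against 33.6% (U87) and 35.6% (U373) of all tested genes. The list was chosen with earlier results of these data known, so these shares are not a test of it. Of the importers not tested, SLC7A3 had 0 reads in every group, and SLC7A2 had 2 reads in U87 PBS and 0 elsewhere. SLC7A1, the main arginine importer, averaged 6857 ± 171 with BCT-100 and 4840.3 ± 95.8 with PBS in U87. In U373 it averaged 12588 ± 468 with BCT-100 and 2519 ± 9.84 with PBS. Like ASS1, SLC7A1 rose more in U373, with a difference of the log2 changes, U87 minus U373, of -1.82 (SE 0.04, adjusted p = 3.38e-17). SLC3A2, the heavy chain of several transporters, rose by 2.49 in U87 and 2.88 in U373 (SE 0.03 each). SLC7A7, with at most 20.2 as a group mean, passed in U87 and missed the threshold in U373 (adjusted p = 0.0792), and the difference is not read here. SLC7A6, which exchanges arginine for neutral amino acids, rose by 0.22 in U87 and 1.04 in U373 (SE 0.04 each). The SLC7A7 call in U87 call was lost under 9 of 23 alternatives, among them leaving out U87 PBS replicate 1 or 2, U87 BCT-100 replicate 1 or 2, or U373 BCT-100 replicate 1 (adjusted p = 0.0506 to 0.158).

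Genes that use arginine or ornithine moved in both directions. Of 11 such genes 10 could be tested. In U87, 2 rose, 4 fell and 4 did not pass (median -0.13), and in U373, 4 rose, 4 fell and 2 did not pass (median 0.16). The 2 that rose in U87 were GATM and DDAH2. DDAH2, a relative of DDAH1, rose by 0.37 in U87 and fell by 1.02 in U373 (SE 0.13 each), and the responses differed by 1.39 (SE 0.19, adjusted p = 2.77e-06). Its U87 call was lost without U87 PBS replicate 2 (adjusted p = 0.0681) or U87 BCT-100 replicate 3 (adjusted p = 0.0718). GATM, which takes arginine for creatine synthesis, averaged 51.8 ± 5.59 with BCT-100 and 17.0 ± 2.87 with PBS in U87. In U373 it averaged 47.2 ± 11.5 with BCT-100 and 292 ± 17.7 with PBS, and the responses differed by 4.20 (SE 0.30, adjusted p = 3.47e-10). ODC1, which turns ornithine into putrescine, fell by 0.37 in U87 and rose by 0.86 in U373 (SE 0.03 each), the same signs as ARG2. OAT, which sends ornithine towards proline, fell by 0.66 in U87 and fell by 0.77 in U373 (SE 0.04 each). GAMT, the next creatine enzyme, fell by 1.2 in U87 and fell by 0.75 in U373 (SE 0.09 each). DDAH1, which recycles methylated arginine to citrulline, fell by 0.26 in U87 and rose by 0.64 in U373 (SE 0.05 each). AGMAT, named as an agmatinase, rose by 0.98 in U373 (SE 0.42, adjusted p = 0.0451) and was at 0.80 in U87 without passing (adjusted p = 0.1003). Its U373 call was lost under 11 of 22 alternatives, among them leaving out U373 PBS replicate 2 (0.60, adjusted p = 0.225). AZIN2, an antizyme inhibitor, rose by 0.68 in U373 (SE 0.21, adjusted p = 0.00628) and was at 0.20 in U87 without passing (adjusted p = 0.409). The U373 call of AZIN2 was lost without U373 PBS replicate 3 (0.41, adjusted p = 0.0546). The nitric oxide synthase NOS3 was not tested. It had 15 reads in U87 BCT-100, 10 in U87 PBS, 1 in U373 BCT-100 and 0 in U373 PBS. NOS1 and NOS2 were tested and did not pass in either line. Their group means were at most 13.1 (NOS1, U87 PBS) and 12.6 (NOS2, U373 PBS).

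Genes that supply aspartate to ASS1 or take up the fumarate from ASL also moved. Of 5 genes all were tested, with 1 higher and 4 lower in U87 (median -0.37) and 3 higher and 2 lower in U373 (median 0.22). GOT1, which makes cytosolic aspartate, rose by 1.30 in U87 and 1.61 in U373 (SE 0.04 each). FH, the fumarase, changed by -0.37 and -0.70, and MDH1, cytosolic malate dehydrogenase, changed by -0.83 and -0.86, in U87 and U373 (SE 0.04 each). SLC25A12, another aspartate carrier, fell by 0.39 in U87 and rose by 0.22 in U373 (SE 0.06 each). GOT2, the mitochondrial aspartate transaminase, fell by 0.11 in U87 and rose by 0.32 in U373 (SE 0.03 each), and its U87 call was lost without U87 PBS replicate 3 (adjusted p = 0.0536). Of the 6 genes that sense arginine or attach it to tRNA or protein, 3 rose, 1 fell and 2 did not pass in U87 (median 0.34). In U373, 3 rose, 2 fell and 1 did not pass (median 0.05). The lysosomal arginine sensor SLC38A9 rose by 0.55 and 0.60 (SE 0.08 each), and the arginyltransferase ATE1 by 0.51 and 0.90 (SE 0.05 each). RARS1, the cytosolic arginyl-tRNA synthetase, rose by 0.16 and 0.40 (SE 0.03 each). RARS2, its mitochondrial counterpart, fell by 0.31 in U373 (SE 0.06) and was at -0.13 in U87 without passing (adjusted p = 0.0635). CASTOR2, a paralogue of the cytosolic arginine sensor CASTOR1, fell by 0.56 in U87, as the 1 lower gene there, and fell by 0.90 in U373 (SE 0.20 each). Its U87 call was lost without U87 PBS replicate 1 (adjusted p = 0.0717). With equal totals, voom weights or a fit of U87 alone, 2 of these genes fell in U87.

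**Figure D4:**
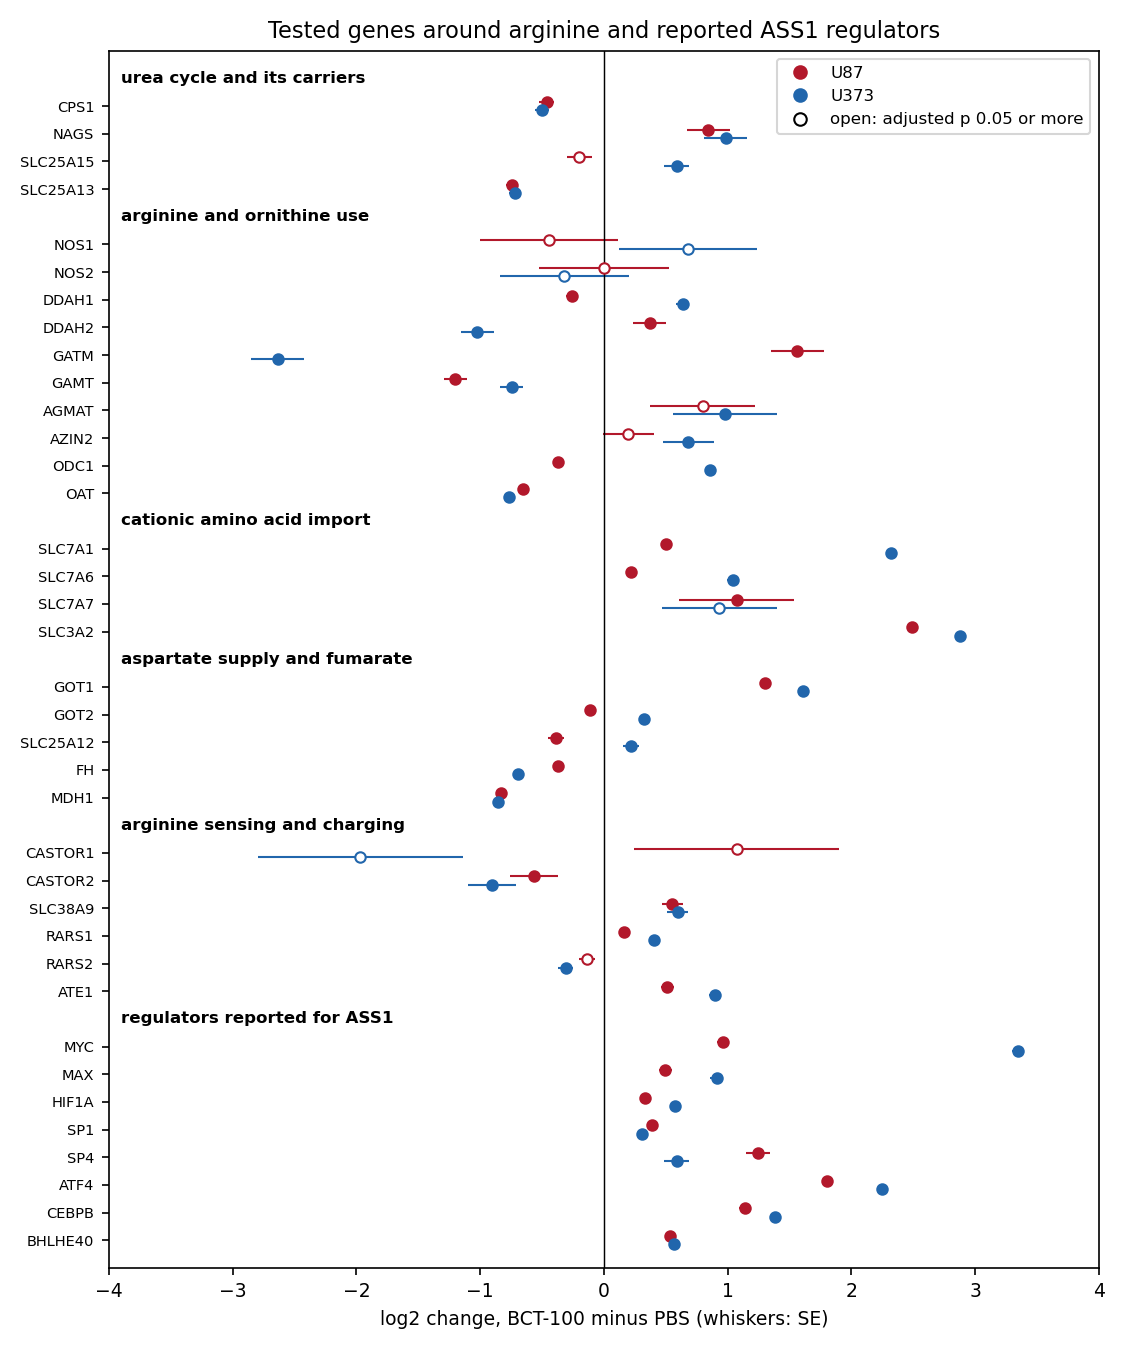
Log2 change, BCT-100 minus PBS (x axis, whiskers SE), of the tested genes around arginine and of transcription factors, grouped by list, in U87 (red) and U373 (blue); open points did not pass an adjusted p of 0.05. GATM is far apart in the 2 lines, at 1.56 in U87 and -2.63 in U373, and MYC is the rightmost point, at 3.35 in U373.

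Transcription factors reported for the ASS1 promoter or for the amino acid response were higher in both lines, 8 of 8 in each (median 0.75 in both), against 33.6% (U87) and 35.6% (U373) of all tested genes. This list was chosen with earlier results of these data known, so the shares beside it describe and do not test it. MYC, a factor reported to act at the ASS1 E-box, averaged 2254 ± 26.2 with BCT-100 and 1157 ± 20.4 with PBS in U87. In U373 it averaged 7302 ± 334 with BCT-100 and 719 ± 58.9 with PBS, a rise of 3.35 (SE 0.05), against 0.96 (SE 0.05) in U87. MYC and ASS1 mRNA both rose, and both rose more in U373, with a difference of the MYC responses, U87 minus U373, of -2.38 (SE 0.07, adjusted p = 4.97e-16). Their levels did not run together between the treated lines. With BCT-100, U373 had more MYC than U87 (7302 against 2254) but less ASS1 (666 against 4509). With PBS, U87 had more of both. Whether MYC acts on ASS1 here was not tested. HIF1A, another factor reported at the ASS1 E-box, rose by 0.34 in U87 and 0.57 in U373 (SE 0.03 each). The list does not separate reported activators from reported repressors, so a rise in it has no set direction for ASS1. ATF4, the main factor of the amino acid response, rose by 1.80 and 2.25 (SE 0.04 each). CEBPB, a partner of ATF4, rose by 1.14 and 1.38 (SE 0.04 each), and SP4, a GC-box factor, by 1.24 and 0.59 (SE 0.10 each). RNA levels do not show binding of any of these factors.

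Some genes followed the members closely over the 12 libraries. Among 11042 tested genes with a mean of at least 100, those with the highest Pearson r of log2(value + 1) to ASS1 were SCN9A (0.998), a sodium channel, DUSP5 (0.996), a phosphatase of ERK, and RPL22L1 (0.996), a ribosomal protein paralogue. SCN9A averaged 321 ± 7.13 in U87 BCT-100, 155 ± 11.7 in U87 PBS, 78.0 ± 9.18 in U373 BCT-100 and 4.22 ± 0.615 in U373 PBS, the same order as ASS1. For ASL they were SLC25A11 (0.991), the mitochondrial oxoglutarate carrier, BICD1 (0.987), a dynein adaptor, and FUBP1 (0.987), a DNA-binding protein. For ARG2 they were IMPDH2 (0.978), an enzyme of guanine nucleotide synthesis, STARD3NL (0.974) and NCOA6 (0.974), a nuclear receptor coactivator. IMPDH2 averaged 4454 ± 62.8 in U87 BCT-100, 5798 ± 142 in U87 PBS, 4747 ± 288 in U373 BCT-100 and 3256 ± 37.2 in U373 PBS. With 12 libraries in 4 groups, r is largely set by the 4 group means, which many genes can share.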

How the data were processed

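RNA of 12 libraries (3 in each of 4 groups) was sequenced. Groups were taken from the treatment and cell line labels, because the protocol label names PBS for every sample. The submitters' processing notes name STAR, RSEM and hg38, with no versions. The authors deposited 1 signal value per gene and library. The values show estimated read counts divided by 1 factor per library: undoing it gave whole reads (within 0.001) for 89.4% to 90.4% of values, zeros included. The table held 19844 rows, and 20 exact repeats were dropped.

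The test was limma 3.58.1 (R 4.3.3) with a trended, robust prior on log2(value + 1), on the authors' scaling, for genes that reached 10 in 3 or more libraries. The fit used 4 group means, with 8 residual degrees of freedom, over all 13628 tested genes. Reads were recovered only to give depths and Poisson intervals. Exon lengths came from GENCODE 29, and the promoters from RefSeq. Named pathway genes are those with the largest called changes in 6 pathway lists (up to 3 in each direction), those not tested, and further list members. Genes like a member are the 3 with the highest Pearson r. Levels of 5 marker lists (glial, leukocyte, hepatocyte, endothelial, epithelial) were summed. Members and lists were chosen with earlier results of these data known. No batches are named in the labels, and groups of 3 are too small for a test of single deviating libraries.

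Alternatives were other scalings, pseudocounts, filters and priors, voom weights, a fit per line, a replicate block, a fold threshold and leaving out each library.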

Additional observations from a re-analysis of the deposited data

Results flagged for a closer look

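The response to BCT-100 differed between the cell lines, by the test of the difference itself, in each of the 3 genes. For ASS1 the log2 change in U87 minus that in U373 was -3.51 (95% interval -3.68 to -3.33), with a rise in both lines. That interval is narrower than counting error in the U373 PBS libraries allows. For ASL it was 0.36 (95% interval 0.17 to 0.55), with a fall in both lines. For ARG2 it was -1.75 (95% interval -2.13 to -1.38), with a fall in U87 and a rise in U373. Of all tested genes 56.8% differed in this way.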

How the results depend on the processing

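The 22 results on the 3 genes, the ASS1 to ASL ratio and the counts of calls were recomputed under 24 settings, 490 values in all. In 474 the direction and the side of the threshold stayed as reported (for counts, the value stayed within 1.5 times), and 0 reversed. Part of this was fixed in advance. The exact permutation test of the ratio cannot go below 0.1, and other scalings barely touch a ratio within a library. Leaving out a library of the other line leaves a log2 change within a line as it was. The replicate block changed no call of these: ASS1 changed by 1.15 in U87 and 4.66 in U373 with it, and 9465 and 9709 genes were called. Same-numbered libraries of different groups did not deviate together (correlations of -0.0704 to 0.0311). The numbers thus gave no sign of pairing, though this check cannot exclude it.

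Against a fold of 1.5, the ASL changes of -0.40 in U87, 0.36 for the difference of responses, -0.51 between the lines in PBS and -0.15 between the lines in BCT-100 did not pass, nor did ARG2 in U87 at -0.81. That test asks for a larger change by construction. It called 2768 genes in U87, 3179 in U373, 1747 for the difference, 5846 between the lines in PBS and 6086 between the lines in BCT-100, against 9450, 9724, 7740, 11325 and 11493. Between the lines in BCT-100, ARG2 passed at -0.29 with equal totals and at -0.30 with voom weights, and over the libraries left out ranged from -0.34 to -0.16. ASL there ranged from -0.20 to -0.12 over the libraries left out. The cause was not tested.

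The ASS1 change ran from 1.11 to 1.17 in U87 and from 4.47 to 4.70 in U373 over all settings. Of 2085 values for 87 results on pathway genes and their counts, 2003 kept their call or stayed within 1.5 times the count, and 0 reversed. The 77 ASS1 reads in the U373 PBS group (95% Poisson interval 60.8 to 96.2, counting error only) limit how exactly its fold can be given. The limma SEs and intervals of ASS1 differences that use this group are narrower than that counting error.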

Other observations

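Genes beside the 3 members gave the following changes. FUBP3, the nearest coding gene after ASS1 in the table, rose by 0.45 in U87 and 0.57 in U373 (SE 0.04 each), against 1.15 and 4.66 for ASS1. HMCN2, the nearest before it, was at -1.68 (SE 0.49, adjusted p = 0.00452) in U87 and at 0.24 (SE 0.49, adjusted p = 0.685) in U373. Beside ASL, GUSB, a lysosomal glucuronidase, changed by -0.98 and -0.43 (SE 0.05 each), and CRCP, a subunit of RNA polymerase III, rose by 0.41 and 1.27 (SE 0.04 each). Beside ARG2, PIGH, a gene of GPI anchor synthesis, rose by 0.33 (SE 0.11, adjusted p = 0.00951) in U87 and 0.61 (SE 0.11, adjusted p = 3.22e-05) in U373. RDH11, on the other side, a retinol dehydrogenase, was at -0.13 (SE 0.04, adjusted p = 0.00523) in U87 and at -0.04 (SE 0.04, adjusted p = 0.321) in U373. These genes were chosen by position, and all adjusted p-values are from the same limma fit.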
